A study of Bos taurus with 9 samples.

Results

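The 9 genes described here encode the receptors through which ovarian steroids, corticosteroids and oxytocin act on the uterus, and were chosen by symbol from a table of 30641 genes: PGR, ESR1, ESR2, NR3C1, NR3C2, PGRMC1, PGRMC2, OXTR and GPER1. All 9 symbols were in the table, and 7 of them had enough counts to be tested, against 14874 genes tested in all; ESR2 and OXTR did not. RNA was sequenced from cultured cells labelled as bovine endometrial epithelial cells (Bos taurus), as 9 libraries that form 3 groups of 3. Cells of the DPPA3 mRNA group were transfected 24 hours after seeding with 500 ng of mRNA for DPPA3, an embryonic gene, transcribed in vitro and carried by jetMESSENGER. For the reagent alone group jetMESSENGER was added then with no mRNA, and the untreated control had neither. All groups grew in the same commercial endometrial growth medium. The sources used here give neither its hormone content nor the number of animals behind the cells or the time of harvest. Because no group received another mRNA, an effect of the DPPA3 sequence and one of any transfected mRNA cannot be told apart. The labels do not say that replicates were separate cultures, so the p-values speak of the spread among these libraries alone, and that spread may be technical.

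Steroid hormones act mainly through nuclear receptors, proteins that bind the hormone inside the cell and then bind DNA and switch genes on or off. In the cow, progesterone keeps the endometrium in a state that can carry an embryo, oestrogen acting through ESR1 favours growth and the appearance of oxytocin receptors, and oxytocin acting on OXTR in the endometrium sets off the pulses of prostaglandin F2 alpha that end the cycle. In ruminants the embryo's interferon tau holds down ESR1 and OXTR in the endometrial epithelium, which is how pregnancy is recognised. PGRMC1 and PGRMC2 are haem-binding membrane proteins linked to rapid, non-genomic effects of progesterone, and GPER1 is a G protein-coupled receptor of the plasma and inner membranes that responds to oestrogen. The series title gives the study's subject as pregnancy-related genes in endometrial cells under embryonic DPPA3, and the comparisons below ask whether these receptors are among those that respond.

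Total counts lay between 3890134 in reagent alone replicate 1 and 13258036 in DPPA3 mRNA replicate 1. Levels are given as CPM, counts divided by the TMM-scaled library size, in the usual unit of that name, and 3 counts in a library, used as its floor, corresponded to 0.226 to 0.747 CPM. DPPA3 itself was at 126334 to 213790 counts in the DPPA3 mRNA libraries, 0 in each reagent alone library and 0 to 2 in the untreated controls. Untreated control replicate 1 stood apart. The gene LOC112442408 took 10.98% of its counts, against 3.05% to 4.36% in the other 8 libraries, and its TMM factor was 0.856 against 1.001 to 1.05. Results that rest on it are given with and without it.

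The labelled cell type was checked against its markers. Keratins of simple epithelia were abundant, with KRT8 at 4260, KRT19 at 2645, KRT18 at 1818 and KRT7 at 486 CPM on average over the 9 libraries, and CDH1, the epithelial cadherin, averaged 51.8 CPM. The other 5 of 10 epithelial markers were at or near 0: GRHL2 had 0 counts in all 9 libraries, ESRP1 had 4 counts, CLDN7 20, EPCAM 37 and CLDN4 52 over all of them. Fibrillar collagens, which mark stromal fibroblasts, were abundant too (COL1A2 13648, COL1A1 10741 and COL3A1 7328 CPM), and VIM averaged 1525, DCN 192 and PDGFRA 33.7 CPM. Of the 11 stromal markers, THY1 (58 counts over all libraries) and TCF21 (4 counts) were near 0. The near absence of EPCAM, a defining epithelial gene, and the level of the collagens go against the epithelial label in part, so the libraries are called by their treatment and not by a cell type. Summed over the list, the 11 stromal markers were at 29478 to 34674 CPM in the DPPA3 mRNA, 27920 to 36006 CPM in the reagent alone and 30412 to 46397 CPM in the untreated control libraries, and the 10 epithelial markers at 8791 to 9789 CPM after DPPA3 mRNA, 8584 to 8940 CPM after reagent alone and 8925 to 11048 CPM in the untreated control. The immune markers PTPRC and ITGAM had 0 counts, and the 7 immune markers summed to 5.05 to 9.17 CPM after DPPA3 mRNA, 6.97 to 9.70 CPM after reagent alone and 5.64 to 8.99 CPM in the untreated control. The 6 endothelial markers summed to 6.41 to 11.0 CPM after DPPA3 mRNA, 10.005 to 12.7 CPM after reagent alone and 7.69 to 9.51 CPM in the untreated control. The 5 smooth muscle markers, TAGLN (529 CPM on average) among them, summed to 790 to 1479 CPM after DPPA3 mRNA, 1015 to 1526 CPM after reagent alone and 826 to 1549 CPM in the untreated control. In cultures of this kind fewer cells of a type and less RNA per cell cannot be told apart, and the part of the cell mixture in the receptor levels was not tested.

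**Figure D1:**
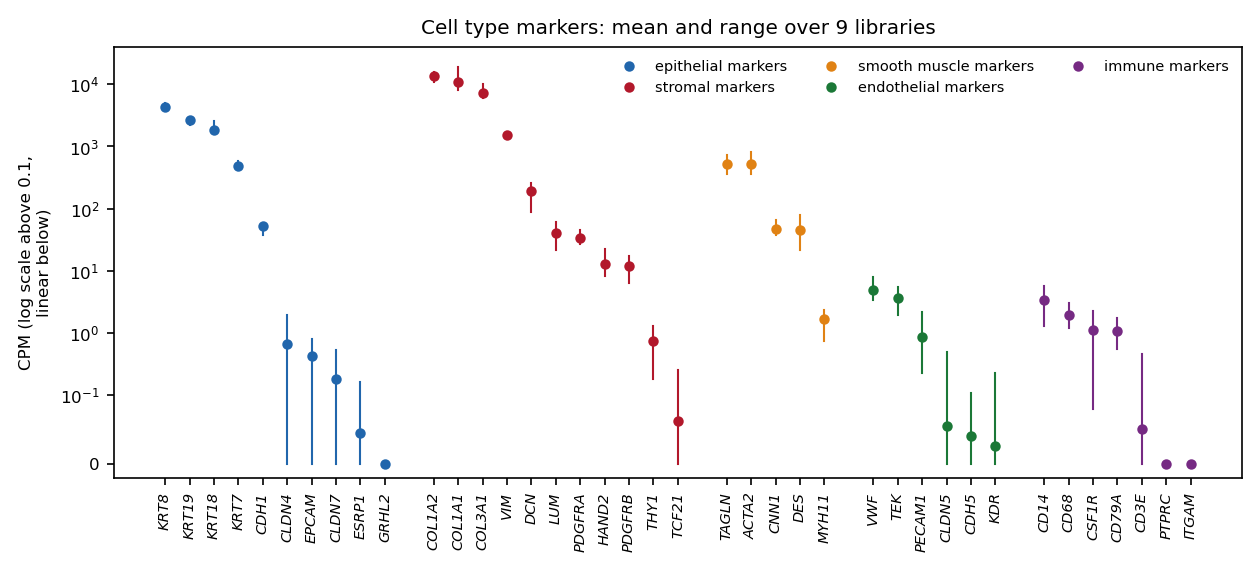
Mean level over the 9 libraries (points) and lowest to highest library (lines) of each marker gene, in CPM on an axis that is logarithmic above 0.1 and linear below it, with the 5 lists in different colours. KRT8, KRT19 and KRT18 lie at 4260, 2645 and 1818 CPM while GRHL2 lies at 0, and the collagens COL1A2, COL1A1 and COL3A1 lie at 13648, 10741 and 7328 CPM.

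None of the receptor levels differed between treatments past the test. By the quasi-likelihood test of edgeR, adjusted by Benjamini-Hochberg over all genes, 0 of the 7 tested receptors passed in any of the 3 comparisons. For DPPA3 mRNA against reagent alone the share of all genes called was 0.00672%, which was DPPA3 alone, and 0 of the 7 receptors had an unadjusted p under 0.05, against 1.67% of all genes. For DPPA3 mRNA against untreated control 0.0134% of all genes were called (DPPA3 and IFITM1) and 3.91% had an unadjusted p under 0.05, again with 0 receptors among them. For reagent alone against untreated control 0% of all genes were called and 10.2% had an unadjusted p under 0.05, with 0 receptors among them. This fit had group as its only term. With replicate number as a block, the unadjusted edgeR p was 0.036 for GPER1 in DPPA3 mRNA against untreated control (adjusted p 0.52). It was 0.022 for PGRMC2 in reagent alone against untreated control (adjusted p 0.21). The share of all genes under 0.05 in the block fit is not given here. The Wald test of DESeq2 also called 0 of the 7 receptors in each of the 3 comparisons. With so few calls among all genes, the absence of a call among 7 receptors says little about them, and the intervals below give the sizes of change that the data leave possible. The median log2 fold change of the 7 receptors was -0.03 in DPPA3 mRNA against reagent alone, beside 0.0027 for all genes tested, -0.12 beside 0.0017 in DPPA3 mRNA against untreated control, and -0.09 beside -0.0099 for reagent alone against untreated control. In each comparison the CPM ranges of the groups overlapped for all 7, although some genes had groups that did not overlap: 8.9% of all genes tested in DPPA3 mRNA against reagent alone (4.91% higher, 3.99% lower), 8.1% in DPPA3 mRNA against untreated control (4.24% higher, 3.86% lower) and 14.1% for reagent alone against untreated control (6.92% higher, 7.21% lower).

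Progesterone's nuclear receptor, PGR, measured 17.4, 14.5 and 12.8 CPM in replicates 1, 2 and 3 of DPPA3 mRNA, 15.4, 12.4 and 9.77 CPM in reagent alone replicates 1, 2 and 3, and 29.8, 11.3 and 12.5 CPM in untreated control replicates 1, 2 and 3. The groups overlapped, and the highest value belonged to untreated control replicate 1, the library that stood apart. PGR averaged 14.9 ± 2.33 CPM after DPPA3 mRNA and 12.5 ± 2.84 CPM after reagent alone (SD, n = 3 each), a 1.21-fold difference with a 95% interval of 0.718 to 2.02 (edgeR adjusted p 0.9998). Against the untreated controls, at 17.9 ± 10.4 CPM (SD, n = 3), the log2 fold change of DPPA3 mRNA was -0.25 (SE 0.34; edgeR adjusted p 0.88). That of reagent alone was -0.52 (SE 0.35; edgeR adjusted p 0.52). Each DPPA3 mRNA library lay above the reagent alone library of the same number, as 28.9% of all genes did in one direction or the other. Both signs against untreated cells rested on untreated control replicate 1: without it the log2 fold change was 0.33 for DPPA3 mRNA and 0.06 for reagent alone (edgeR adjusted p 0.9998 and 0.99).

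The membrane-associated progesterone receptor components, PGRMC1 and PGRMC2, varied less over the libraries than PGR did. PGRMC1 had 54.4, 60.1 and 49.2 CPM in the DPPA3 mRNA replicates, 58.8, 58.2 and 62.2 CPM in the reagent alone replicates, and 44.5, 58.5 and 43.2 CPM in the untreated control replicates. Its values varied least of the 9 receptors over all libraries, with a coefficient of variation of 12.9% beside a median of 24.8% for all genes tested. PGRMC1 after DPPA3 mRNA was 0.913-fold its level after reagent alone, with a 95% interval of 0.709 to 1.18, and its log2 fold change over untreated cells was 0.16 (fold interval 0.869 to 1.44). With reagent alone it was at 59.7 ± 2.14 CPM, against 48.7 ± 8.46 CPM in the untreated control (SD, n = 3 each; log2 fold change 0.29, SE 0.17; edgeR adjusted p 0.48). Each DPPA3 mRNA library lay above the untreated control of the same replicate number, where 36.8% of all genes had all 3 equal numbers in one direction.

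PGRMC2, the paralogue, measured 67.5, 97.9 and 83.1 CPM in the DPPA3 mRNA replicates, 86.7, 93.9 and 78.3 CPM in the reagent alone replicates, and 51.7, 80.4 and 69.3 CPM in the untreated control replicates. Its lowest value again belonged to untreated control replicate 1. Each DPPA3 mRNA library and each reagent alone library lay above the untreated control of the same replicate number, although the groups as wholes overlapped. Of all genes tested, 36.8% and 39.3% had all 3 equal numbers in one direction in those comparisons. The log2 fold change was 0.30 (SE 0.19; edgeR adjusted p 0.85) for DPPA3 mRNA and 0.36 (SE 0.19; edgeR adjusted p 0.47) for reagent alone over untreated control, and leaving out untreated control replicate 1 gave 0.15 for DPPA3 mRNA and 0.21 for reagent alone. With replicate number as a block, reagent alone over untreated control gave 0.37 (95% interval 0.064 to 0.69, unadjusted edgeR p 0.022, adjusted p 0.21). DPPA3 mRNA over untreated control then gave 0.30 (unadjusted edgeR p 0.052, adjusted p 0.52). Between DPPA3 mRNA and reagent alone the fold was 0.96, with a 95% interval of 0.722 to 1.28.

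**Figure D2:**
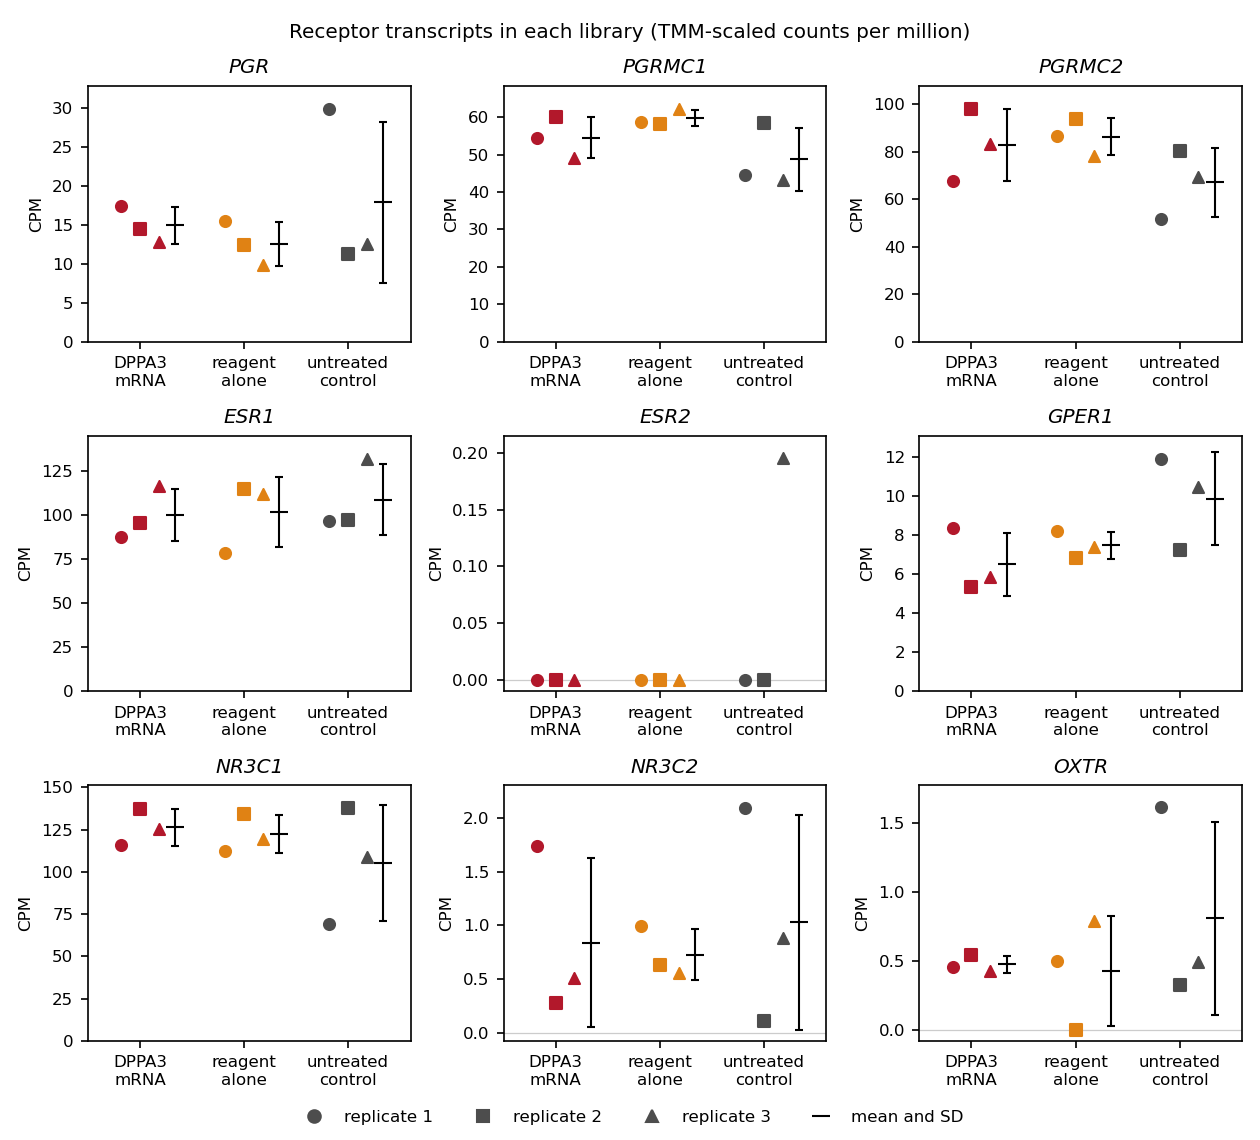
Level of each of the 9 receptors in every library, in CPM, with the groups side by side, the replicate number as the marker shape, and the mean and SD of each group as a black bar (not drawn for ESR2, whose counts were 2 in all). The groups overlap for the 7 tested receptors, and untreated control replicate 1 holds the highest PGR (29.8 CPM) and the lowest NR3C1 (69.0 CPM) of all libraries.

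Of the nuclear oestrogen receptors, the alpha receptor ESR1 was well covered in every library. It had 87.8, 95.8 and 117 CPM in the DPPA3 mRNA replicates, 78.7, 115 and 112 CPM in the reagent alone replicates, and 96.5, 97.5 and 132 CPM in the untreated control replicates. All 9 libraries held at least 316 counts of ESR1, and the groups overlapped over most of their range. ESR1 averaged 100.1 ± 14.9 CPM after DPPA3 mRNA and 102 ± 20.1 CPM after reagent alone (SD, n = 3 each). The fold was 0.98, with a 95% interval of 0.736 to 1.30 (edgeR adjusted p 0.9998), so an increase above 1.30-fold or a decrease below 0.736-fold lies outside it. Against untreated cells, at 109 ± 20.2 CPM (SD, n = 3), ESR1 was 0.92-fold after DPPA3 mRNA (0.692 to 1.22) and 0.939-fold after reagent alone (0.705 to 1.25). Each DPPA3 mRNA library lay below the untreated control of the same replicate number. In that comparison 36.8% of all genes tested had all 3 equal numbers in one direction or the other.

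ESR2, the beta receptor, had 0 counts in every DPPA3 mRNA library, 0 in every reagent alone library and 0, 0 and 2 in the untreated control replicates. A count of 0 allows up to 0.0831 CPM over the pooled DPPA3 mRNA libraries and 0.108 CPM over the pooled reagent alone libraries (3 counts per group, counting error only). ESR2 was not tested, and no fold is given for it.

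GPER1, the membrane oestrogen receptor, measured 8.37, 5.33 and 5.86 CPM in the DPPA3 mRNA replicates, 8.22, 6.83 and 7.41 CPM in the reagent alone replicates, and 11.9, 7.25 and 10.5 CPM in the untreated control replicates. Every DPPA3 mRNA library and every reagent alone library lay below the untreated control with the same number, and 1 of the 3 untreated values lay inside the range of both other groups. All 3 equal numbers went in one direction for 36.8% and 39.3% of all genes tested in those comparisons. GPER1 averaged 6.52 ± 1.62 CPM after DPPA3 mRNA and 9.88 ± 2.39 CPM in the untreated control (SD, n = 3 each; log2 fold change -0.59, SE 0.29). Its unadjusted p of 0.064 was the smallest of any receptor in the fit with group as the only term, and its adjusted p was 0.85 by edgeR. With replicate number as a block the log2 fold change was -0.60, with a 95% interval of -1.15 to -0.046 (unadjusted edgeR p 0.036, adjusted p 0.52). The log2 fold change stayed negative under all 16 alternatives, between -0.81 and -0.43, with -0.43 without untreated control replicate 1. Reagent alone, at 7.48 ± 0.70 CPM (SD, n = 3), had a log2 fold change of -0.40 over untreated control (SE 0.30; edgeR adjusted p 0.54), and DPPA3 mRNA one of -0.19 over reagent alone (SE 0.30; edgeR adjusted p 0.9998). The comparisons with untreated control share its 3 libraries.

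The glucocorticoid receptor NR3C1, which answers cortisol, was counted 10811 times over all libraries. It measured 116, 137 and 125 CPM in the DPPA3 mRNA replicates, 112, 134 and 120 CPM in the reagent alone replicates, and 69.0, 137 and 109 CPM in the untreated control replicates. Untreated control replicate 1 lay below all other libraries. DPPA3 mRNA was 1.03-fold reagent alone, with a 95% interval of 0.755 to 1.41. Its 3 libraries each lay above the reagent alone library of the same number, as 28.9% of all genes did in one direction or the other. The log2 fold changes over untreated control were 0.26 for DPPA3 mRNA (SE 0.21; edgeR adjusted p 0.85) and 0.22 for reagent alone (SE 0.21; edgeR adjusted p 0.64). Leaving out untreated control replicate 1 gave 0.04 for DPPA3 mRNA and 0.00049 for reagent alone.

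NR3C2, the mineralocorticoid receptor, which binds aldosterone and also cortisol, was near the limit of detection. It had 23, 3 and 6 counts in DPPA3 mRNA replicates 1 to 3 (1.73, 0.271 and 0.509 CPM), 4, 7 and 7 counts in reagent alone replicates 1 to 3 (0.996, 0.629 and 0.551 CPM), and 13, 1 and 9 counts in the untreated control replicates (2.09, 0.108 and 0.88 CPM). The libraries of 1 group differed by more than the groups did. The fold of DPPA3 mRNA over reagent alone was 1.23 with a 95% interval of 0.297 to 5.13, so the data leave possible a change of either direction within that interval. Over untreated control its log2 fold change after DPPA3 mRNA was -0.21, and 0.75 without untreated control replicate 1.

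OXTR, the oxytocin receptor, had 6, 6 and 5 counts in DPPA3 mRNA replicates 1 to 3 (0.452, 0.542 and 0.424 CPM), 2, 0 and 10 counts in reagent alone replicates 1 to 3 (0.498, 0 and 0.788 CPM), and 10, 3 and 5 counts in the untreated control replicates (1.61, 0.325 and 0.489 CPM). The highest value was again that of untreated control replicate 1. Pooled, the level was 0.471 CPM after DPPA3 mRNA (95% exact Poisson interval 0.274 to 0.754), 0.431 CPM after reagent alone (0.223 to 0.753) and 0.701 CPM in the untreated control (0.416 to 1.11), intervals that cover counting error only and overlap. Untreated control replicate 1 held 10 of the 18 untreated counts, and without it the pooled untreated level was 0.411 CPM (0.177 to 0.81). OXTR failed the filter on low counts and was not tested. Its ligand gene OXT had 0 counts in all 9 libraries.

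**Figure D3:**
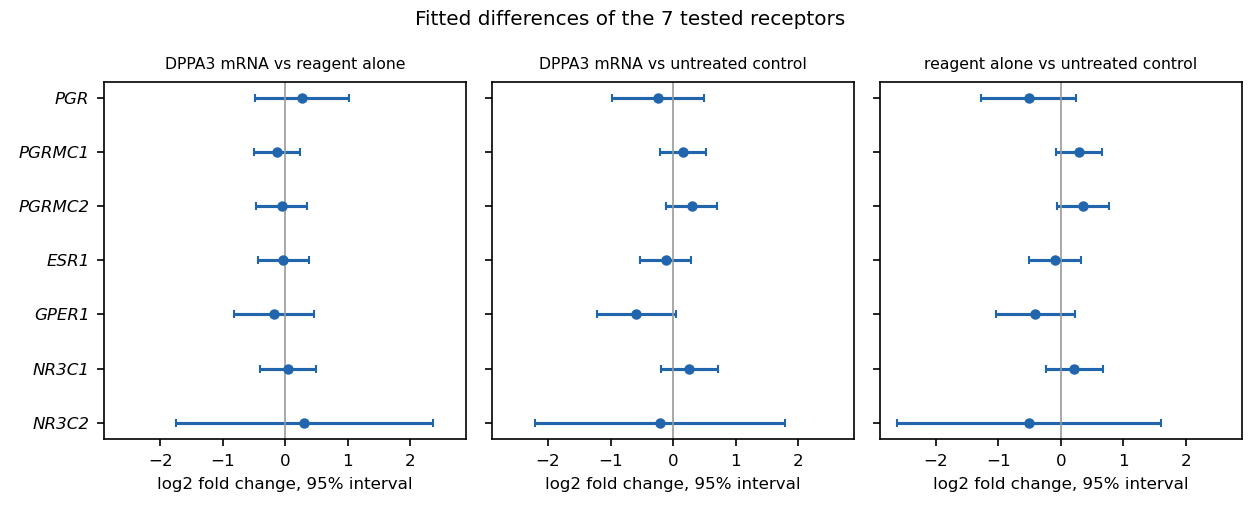
Log2 fold change (points) with its 95% interval (bars) for each of the 7 tested receptors in the 3 comparisons, the first named group over the second. In this fit, with group as the only term, every interval includes 0, and that of NR3C2 runs from -1.75 to 2.36 in DPPA3 mRNA against reagent alone.

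The order of the group means differed between receptors. For PGR, ESR1, NR3C2 and GPER1 the untreated control had the highest mean, while PGRMC1 and PGRMC2 were highest on average after reagent alone and NR3C1 after DPPA3 mRNA, and 0 of the neighbouring groups in any of these orders differed beyond the spread by the edgeR test. The ratio of ESR1 to PGR counts in the same library was 5.04, 6.63 and 9.11 in the DPPA3 mRNA replicates, 5.10, 9.25 and 11.5 in the reagent alone replicates, and 3.24, 8.66 and 10.5 in the untreated control replicates. It was lowest in replicate 1 and highest in replicate 3 of every group. The ratio of PGRMC2 to PGRMC1 counts stayed between 1.16 and 1.69 in all 9 libraries.

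Several receptors were high or low in the same replicate number of every group, a pattern that was examined after the values were seen. PGR, NR3C2 and GPER1 were highest in replicate 1 of all 3 groups, and NR3C1 and PGRMC2 in replicate 2 of all 3 groups. So 5 of the 7 tested receptors had the same number highest in every group, where 26% of all genes tested did. NR3C2, however, passed the count filter only through its replicate 1 libraries. Its place among those 5 was thus fixed by the filter and cannot be set against that share. ESR1 and NR3C1 were lowest in replicate 1 of every group, and GPER1 in replicate 2, which made 3 of 7 beside 23.6% of all genes. In the fit with replicate number as a block, 4 of the 7 receptors (PGR, ESR1, NR3C1 and PGRMC2) had an unadjusted p under 0.05 for the number, where 19.8% of all genes did. After adjustment 0 of 7 passed, where 1.47% of all genes did, and the smallest adjusted p was 0.15, for PGR.

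The largest of these differences were those of NR3C2, at 1.61 CPM on average in the replicate 1 libraries, 0.336 CPM in replicate 2 and 0.647 CPM in replicate 3. Its log2 difference was -2.23 for replicate 2 over replicate 1 (edgeR adjusted p 0.27). That value rests on 40 counts in the replicate 1 libraries and 11 in those of replicate 2. Because NR3C2 passed the count filter only through the replicate 1 libraries, its excess there was selected by the filter. PGR averaged 20.9 CPM in replicate 1, 12.7 CPM in replicate 2 and 11.7 CPM in replicate 3. ESR1 averaged 87.7, 103 and 120 CPM in replicates 1, 2 and 3. Without untreated control replicate 1 the smallest adjusted p was that of ESR1 (0.069, log2 difference of replicate 3 over replicate 1 0.50), with 4.29% of all genes called, and PGR then had an adjusted p of 0.45. What the replicate number stands for is not given in the sources used here. Replicate 1 also held the smallest library of the reagent alone group and the smallest untreated control, which was the library that stood apart. In the DPPA3 mRNA group it held the largest library (13258036 counts). The part of depth in these differences was not tested.

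**Figure D4:**
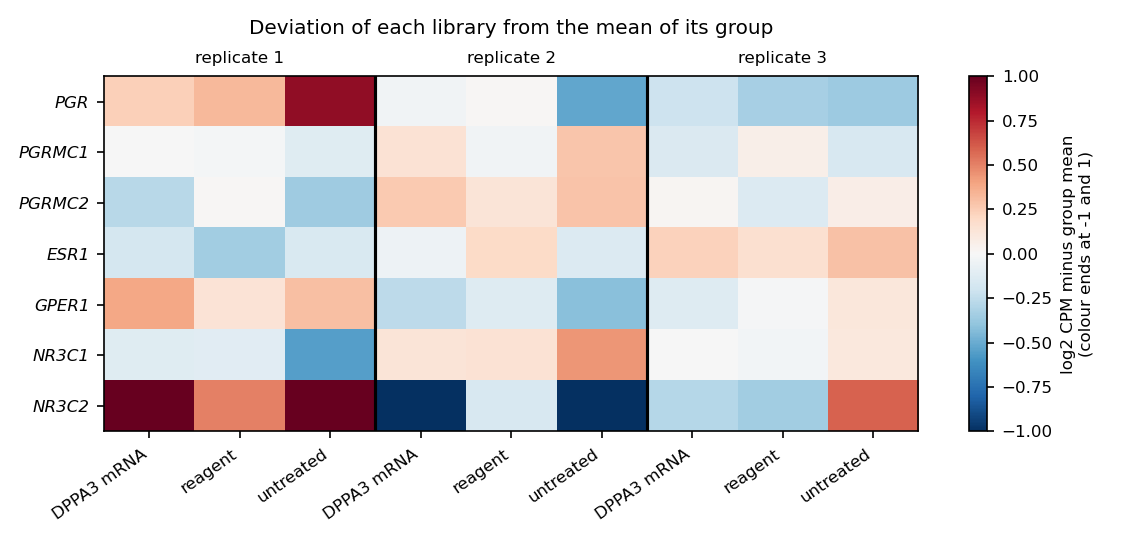
Deviation of each library from the mean of its own group, in log2 CPM, for the 7 tested receptors (rows), with the 9 libraries arranged by replicate number and then by group (columns), red above and blue below the group mean. PGR, NR3C2 and GPER1 are red in all replicate 1 columns and ESR1 and NR3C1 are blue there. NR3C2 passed the count filter only through the replicate 1 libraries.

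The genes whose levels followed each receptor most closely were sought among 14155 others with a mean of at least 1 CPM, by Pearson's r of log2 CPM over the 9 libraries. These values are descriptions, and the points share replicate numbers, depth and untreated control replicate 1. For PGR they were RFX2 (r = 0.98), LSP1 (0.97) and WFS1 (0.97), and without untreated control replicate 1 the same r values were 0.93, 0.92 and 0.90. For NR3C1 they were DNM1L (0.995), RLF (0.99) and CCNT1 (0.99), and for GPER1 BCL9 (0.99), PDLIM2 (0.96) and PCOLCE (0.96). For ESR1 they were LOC104972052 (0.97), ADGRL1 (0.94) and BLOC1S3 (0.94), for PGRMC1 ASPH (0.99), SGMS2 (0.97) and WAC (0.97), and for PGRMC2 RNPC3 (0.99), ITGA1 (0.99) and AASS (0.98). Among the receptors themselves, PGRMC2 followed NR3C1 (r = 0.88 over 9 libraries, 0.68 without untreated control replicate 1) and ran opposite to GPER1 (-0.86 and -0.76). PGR ran opposite to NR3C1 over 9 libraries (-0.83), and this rested on untreated control replicate 1, without which r was -0.25.

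Interferon-stimulated genes were high in the DPPA3 mRNA libraries to different degrees, and the receptors were set beside them because interferon tau acts on ESR1 and OXTR in the ruminant uterus. The 19 genes of that list summed to 268, 2799 and 595 CPM in replicates 1, 2 and 3 of DPPA3 mRNA, against 158 to 257 CPM in the reagent alone libraries and 155 to 205 CPM in the untreated controls. Of the 17 tested, 16 had an unadjusted p under 0.05 against reagent alone, with a median log2 fold change of 3.22, but 0 passed the edgeR adjustment, and 1, IFITM1, passed it against untreated control; DESeq2 called 4 of the 17 against reagent alone and 3 against untreated control. In DPPA3 mRNA replicate 2, where the sum was by far the highest, ESR1 was at 95.8 CPM and OXTR at 6 counts. OXTR lay inside the range of the reagent alone and of the untreated libraries. ESR1 there lay inside the range of the reagent alone libraries (78.7 to 115 CPM) and below all 3 untreated ones (96.5 to 132 CPM), the nearest of which differed by less than 1 CPM. ESR1 was lower still, at 87.8 CPM, in DPPA3 mRNA replicate 1, where the interferon sum was 268 CPM. In DPPA3 mRNA replicate 3, with a sum of 595 CPM, ESR1 was at 117 CPM. In DPPA3 mRNA replicate 2 GPER1 had the lowest value of all 9 libraries (5.33 CPM) and PGRMC2 the highest (97.9 CPM). Both were also lowest and highest in replicate 2 of the other groups. The fold of ESR1 over reagent alone without DPPA3 mRNA replicate 2 corresponded to a log2 fold change of 0.0018. With 3 libraries in which the interferon response differed so much, its relation to the receptors was not tested.

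Around the receptors, 126 tested genes of 160 fixed ones in 9 lists covered their relatives, chaperones, cofactors, target genes, ligand metabolism and signalling. For DPPA3 mRNA against reagent alone 0 of the 126 were called and 1 (0.794%) had an unadjusted p under 0.05, beside 1.67% of all genes, with a median log2 fold change of -0.02. For DPPA3 mRNA against untreated control 0 were called and 2 (1.59%) had an unadjusted p under 0.05, beside 3.91%. For reagent alone against untreated control 0 were called and 9 (7.14%) had an unadjusted p under 0.05, beside 10.2%. DESeq2 also called 0 of the 126 in each comparison. The lists overlap in a few genes.

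The 1 gene under 0.05 against reagent alone was RGS2, a GTPase-activating protein that dampens signalling through Gq, the G protein of the oxytocin receptor, and which stood in the oxytocin and the glucocorticoid lists. RGS2 had 7, 5 and 6 counts in DPPA3 mRNA replicates 1 to 3 (0.528, 0.452 and 0.509 CPM), 16, 13 and 28 counts in reagent alone replicates 1 to 3 (3.98, 1.17 and 2.21 CPM), and 11, 10 and 16 counts in the untreated control replicates (1.77, 1.08 and 1.56 CPM). All 3 DPPA3 mRNA values lay below all 6 others. Of all genes, 3.99% lay wholly below reagent alone in the same way, and 3.86% wholly below untreated control. Its log2 fold change was -2.21 over reagent alone (SE 0.65, unadjusted p 0.0046) and -1.53 over untreated control (SE 0.65, unadjusted p 0.035), and neither passed the adjustment over all genes by edgeR (adjusted p 0.9998 and 0.85).

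The rest of the oxytocin signalling list showed small differences. Of its 25 genes 22 were tested and 0 called in any comparison, with a median log2 fold change of -0.03 for DPPA3 mRNA over reagent alone. GRK6, a kinase that phosphorylates active G protein-coupled receptors, was at 44.7 ± 6.86 CPM after DPPA3 mRNA and 34.8 ± 4.39 CPM after reagent alone (SD, n = 3 each; log2 fold change 0.36, SE 0.20). PLA2G4A, the phospholipase that frees arachidonic acid for prostaglandin synthesis, was at 25.1 CPM after DPPA3 mRNA, 33.7 CPM after reagent alone and 20.6 CPM in the untreated control. PTGS2, the inducible cyclooxygenase, was low in all groups, at 2.19 ± 1.96 CPM after DPPA3 mRNA, 1.81 ± 0.81 CPM after reagent alone and 1.37 ± 1.26 CPM in the untreated control (SD, n = 3 each). PTGS2 was named after its values were seen.

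Of 14 related receptors 7 were tested. NENF, a small haem-binding relative of PGRMC1, was at 57.3 ± 8.75 CPM after DPPA3 mRNA, 51.7 ± 8.6 CPM after reagent alone and 74.7 ± 25.8 CPM in the untreated control (SD, n = 3 each). Its log2 fold change of -0.52 for reagent alone over untreated control was -0.20 without untreated control replicate 1. Among the membrane progestin receptors, PAQR8 was at 12.3 ± 2.66 CPM after DPPA3 mRNA, 14.8 ± 2.18 CPM after reagent alone and 14.8 ± 1.57 CPM in the untreated control (SD, n = 3 each). PAQR6 was at 8.43 ± 1.68 CPM after DPPA3 mRNA, 7.04 ± 2.61 CPM after reagent alone and 12.7 ± 5.53 CPM in the untreated control (SD, n = 3 each), and its log2 fold change of -0.86 for reagent alone over untreated control was -0.45 without untreated control replicate 1. The vasopressin receptors AVPR1A, AVPR1B and AVPR2, relatives of OXTR, and the oestrogen-related receptors ESRRB and ESRRG had 0 counts in all libraries. A count of 0 over the 9 pooled libraries allows up to 0.0335 CPM.

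All 16 receptor chaperones and co-chaperones were tested and 0 were called. PTGES3, the p23 co-chaperone that holds steroid receptors ready to bind hormone, was at 131 ± 40.1 CPM after DPPA3 mRNA and 162 ± 21.0 CPM after reagent alone (SD, n = 3 each; log2 fold change -0.30, SE 0.26). In untreated cells it was at 96.1 ± 34.5 CPM (SD, n = 3), and all reagent alone values lay above them, where 6.92% of all genes had groups apart in that direction (log2 fold change 0.75, SE 0.26, unadjusted p 0.013; edgeR adjusted p 0.47). Without untreated control replicate 1 that log2 fold change was 0.52. PPP5C, a phosphatase bound to HSP90 complexes, lay the other way, with a log2 fold change of -0.47 for reagent alone over untreated control (SE 0.18; edgeR adjusted p 0.47), where 7.21% of all genes had groups apart in that direction, and -0.29 without untreated control replicate 1. FKBP5, a co-chaperone that glucocorticoids induce, measured 43.3 ± 8.24 CPM after DPPA3 mRNA, 42.5 ± 6.92 CPM after reagent alone and 37.5 ± 11.1 CPM in the untreated control (SD, n = 3 each), and was named after its values were seen.

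Of 23 coactivators and corepressors 22 were tested and 0 called. Their log2 fold changes for DPPA3 mRNA over reagent alone lay between -0.17 for TRIM24 and 0.13 for PELP1. Among the 9 lists around the receptors this was the narrowest range beside that of the 9 PGRMC partners (-0.09 to 0.07). Among the PGRMC partners SCAP, the sterol sensor that escorts the transcription factor SREBP, had a log2 fold change of -0.45 for reagent alone over untreated control (SE 0.19; edgeR adjusted p 0.47) and of -0.18 without untreated control replicate 1. In the list of 9 GPER1 signalling genes, 8 were tested and 0 called, and HBEGF, a growth factor released on GPER1 activation in human cells, was at 6.22 ± 1.67 CPM after DPPA3 mRNA and 4.37 ± 1.09 CPM after reagent alone (SD, n = 3 each; log2 fold change 0.54, SE 0.40).

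Of 25 oestrogen- and progesterone-responsive endometrial genes 13 were tested and 0 called, with a median log2 fold change of 0.06 over reagent alone. C3, a complement component that oestrogen induces in the rodent uterus, took most of the counts of this list, at 16415 ± 2281 CPM after DPPA3 mRNA, 15712 ± 1529 CPM after reagent alone and 17674 ± 2236 CPM in the untreated control (SD, n = 3 each), and was named after its values were seen. Others had no counts at all. IHH, AREG, LTF, IGFBP1 and SERPINA14, the last a major progesterone-induced product of ruminant uterine glands, had 0 counts in all libraries, and FOXA2, a transcription factor of uterine glands, had 1. CST3, a secreted protease inhibitor, was at 867 ± 33.7 CPM after DPPA3 mRNA and 772 ± 89.1 CPM after reagent alone (SD, n = 3 each; log2 fold change 0.17, SE 0.14; edgeR adjusted p 0.9998). The groups did not overlap, as for 4.91% of all genes in this direction. Of 18 glucocorticoid-responsive genes 17 were tested and 0 called, with a median of -0.06. PDK4, a kinase that holds back pyruvate dehydrogenase, was at 7.94 ± 2.25 CPM after reagent alone and 3.98 ± 0.96 CPM in the untreated control (SD, n = 3 each; log2 fold change 1.003, SE 0.42, unadjusted p 0.032; edgeR adjusted p 0.47).

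Of 25 genes of steroid synthesis and metabolism 24 were in the table and 16 tested, and 0 were called. CYP11A1, which makes pregnenolone from cholesterol, CYP19A1, the aromatase, and HSD17B2, which inactivates oestradiol, had 0 counts in all libraries. HSD11B1 and HSD11B2, which activate and inactivate cortisol ahead of NR3C1 and NR3C2, were both low and were named after their values were seen. HSD11B1 was at 1.41 ± 0.12 CPM after DPPA3 mRNA, 1.43 ± 1.23 CPM after reagent alone and 1.35 ± 0.33 CPM in the untreated control (SD, n = 3 each). HSD11B2 was at 4.001 ± 0.34 CPM after DPPA3 mRNA, 3.001 ± 1.18 CPM after reagent alone and 3.61 ± 0.65 CPM in the untreated control (SD, n = 3 each). HSD17B10, a mitochondrial dehydrogenase of steroids and fatty acids, had the smallest unadjusted p of the list against reagent alone (0.08), at 22.1 CPM after DPPA3 mRNA and 16.0 CPM after reagent alone (log2 fold change 0.44, SE 0.23).

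**Figure D5:**
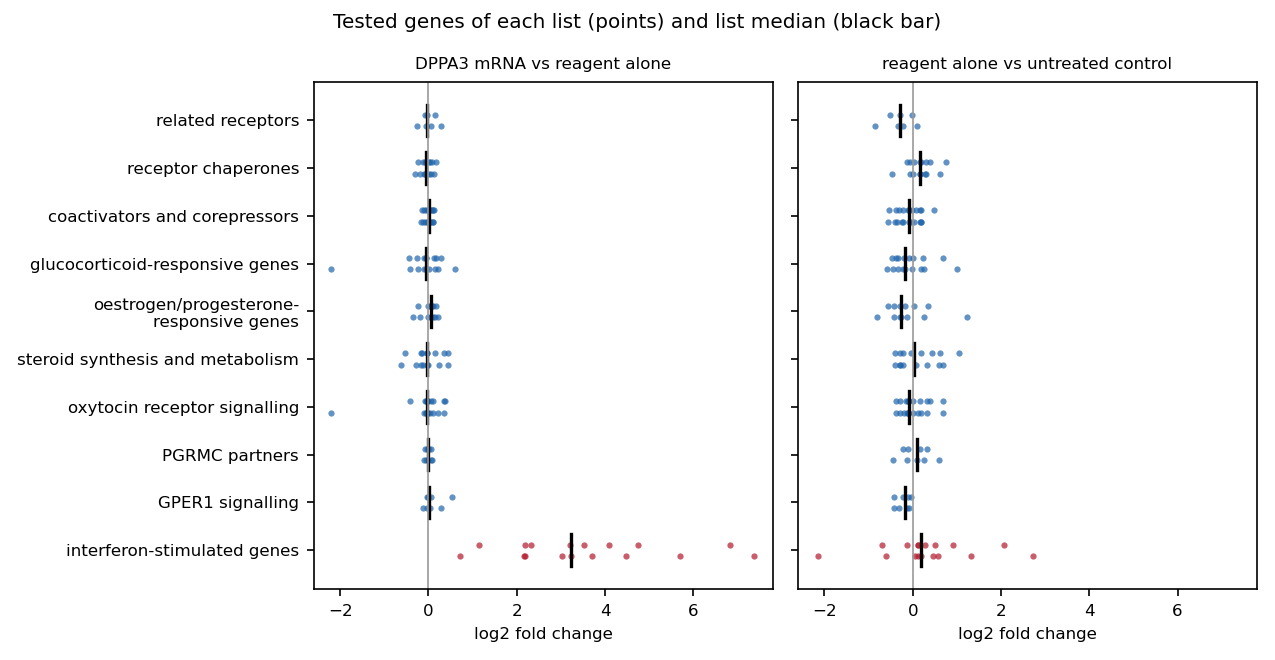
Log2 fold change of every tested gene (points) and the median (black bar) of the 9 lists around the receptors and of the interferon-stimulated genes, for DPPA3 mRNA over reagent alone (left) and reagent alone over untreated control (right). On the left the medians of the 9 lists lie between -0.06 and 0.06, that of the interferon-stimulated genes is 3.22, and the single low point in the glucocorticoid and oxytocin rows is RGS2 (-2.21).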

How the data were processed

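The authors deposited raw read counts per gene symbol for 9 libraries. HISAT2, HTSeq, Trimmomatic and edgeR stand in the submitters' processing notes. Their versions, the genome build, annotation and strand setting were not found there or in the labels. Coordinates and lengths are not used. Count ratios between genes are therefore read across libraries only and do not give relative abundance. A gene cannot be told from an antisense partner. All 9 receptor symbols are protein-coding genes in the RefSeq table of ARS-UCD2.0.

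The counts were filtered with filterByExpr (14874 genes left), TMM-scaled and fitted with edgeR 4.0.16 (glmQLFit, glmQLFTest; R 4.3.3), 3 groups together, group as the only term. Genes under an adjusted p (Benjamini-Hochberg, all genes tested) of 0.05 were called. Standard errors are the log2 fold change over the square root of F, and intervals use the t quantile of the fit. Log2 CPM used a prior count of 2. The common biological coefficient of variation was 0.26. Replicates differed by more than sampling noise (chi-square per degree of freedom at least 13.5). The scripts were tested on simulated counts.

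The members and lists were chosen with earlier results of these data known. Named were all 9 receptors; per list, up to 3 genes with the smallest p against reagent alone and for reagent alone against untreated control; and per receptor the 3 most correlated genes. Some genes that this rule names are not reported here. Deviations of equal replicate numbers correlated at 0.34, 0.32 and 0.12 for DPPA3 mRNA with untreated control, all over 0.1, so the numbers were taken to pair these groups, from the data and not the labels. The tests above nevertheless come from the fit with group as the only term, which ignores this pairing, except where a block is named. Alternatives were DESeq2 size factors, no filter, DESeq2 1.42.0, 2 groups only, a replicate block, DPPA3 left out, and each library left out. The test of replicate number, and the block and the pooled OXTR level without untreated control replicate 1, were added after the data were seen.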

Additional observations from a re-analysis of the deposited data

How the results depend on the processing

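In all 3 comparisons 0 receptors were called under every alternative run, and 310 of 333 receptor fold changes kept their sign. The genes called in DPPA3 mRNA against reagent alone, 1 as reported, numbered 66 unfiltered, 9 by DESeq2, 2 under the replicate block, 0 when DPPA3 was left out, 19 under the block lacking untreated control replicate 1, and 1 to 20 with any single library removed (20 lacking DPPA3 mRNA replicate 1). Against untreated control, 2 as reported, they numbered 69 unfiltered, 10 by DESeq2, 7 under the replicate block, 0 when DPPA3 was left out, 33 under the block lacking untreated control replicate 1, and 1 to 26 over single libraries left out (26 lacking DPPA3 mRNA replicate 1). In reagent alone against untreated control, 0 as reported, they numbered 18 unfiltered, 2 by DESeq2, 6 under the block lacking untreated control replicate 1, and 0 to 1 over single libraries left out. The cause was not tested. The block changed no receptor's call. Its smallest unadjusted p values were 0.022 for PGRMC2 in reagent alone over untreated control (log2 fold change 0.37; edgeR adjusted p 0.21), 0.036 for GPER1 in DPPA3 mRNA over untreated control (-0.60; adjusted p 0.52) and 0.052 for PGRMC2 in the same comparison (0.30; adjusted p 0.52). It gave NR3C2 a log2 fold change of -0.19 over reagent alone. With untreated control replicate 1 also left out, NR3C2 was at -0.16 over reagent alone and 0.084 over untreated control after DPPA3 mRNA, and 0.25 for reagent alone over untreated control, and PGR at 0.18 for DPPA3 mRNA over untreated control.

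When single libraries were left out, the log2 fold change over reagent alone after DPPA3 mRNA ranged from -0.18 to 0.063 for ESR1, -0.80 to 0.70 for NR3C2, -0.018 to 0.12 for NR3C1 and -0.20 to 0.066 for PGRMC2. Over untreated control it ranged from -0.24 to 0.046 for ESR1, -1.31 to 0.75 for NR3C2 and -0.49 to 0.33 for PGR. For reagent alone over untreated control it ranged from -0.18 to 0.075 for ESR1, -1.06 to 0.46 for NR3C2 and -0.76 to 0.061 for PGR. The signs of PGR against untreated control turned without untreated control replicate 1. Equal replicate numbers of DPPA3 mRNA and reagent alone correlated at 0.14, 0.12 and 0.086, and those of reagent alone and untreated control at 0.15, 0.14 and 0.093, so the block stayed an alternative there. The fold changes printed with an SE for list genes kept their sign under all 16 alternatives each, with 0 called. The low counts of ESR2, OXTR and NR3C2 limit what can be said of them.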
